A study of Mus musculus with 7 samples.

Results

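Open chromatin regions (OCRs) whose summit lay in protein-coding sequence and away from any promoter were described in HPC7, a mouse hematopoietic progenitor cell line. Peaks had been called in each of 7 bulk ATAC-seq libraries (HPC7-1, HPC7-2 and HPC7-4 to HPC7-8). In ATAC-seq a transposase cuts and tags DNA where chromatin is open. Values by library are given in the order of these names. Each library came from its own culture batch of the cell line and all 7 formed 1 group, so the comparisons were made between classes of OCRs within each library. The members were chosen by the presence of a peak in every list and by position and width. Peaks that overlapped by 1 bp or more were merged, and an autosomal OCR was kept when it held a peak in all 7 lists, was under 1500 bp wide, and had its mean summit in a GENCODE M21 coding sequence (CDS) more than 3 kb from any transcript start. The mean summit was the mean position over the most intense peak of each library. Of 144931 merged OCRs, 66979 held a peak in all 7 lists, and 453 met the whole rule.

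Coding exons are translated into protein, and the same bases can also carry binding sites for transcription factors, so that a stretch of DNA can serve as protein code and as an enhancer or insulator of the host gene or of a neighbor. Accessibility at an active promoter is the rule in most cell types, whereas an OCR in the body of a gene is more often intronic, where nearly all the bases of a gene lie. In hematopoietic progenitors, the factors known to act at distal elements include the ETS, RUNX and GATA families, the E-box binding factor Tal1, and CTCF, which binds insulators and the anchors of chromatin loops.

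The bases around 6 mean summits are shown to set the motif matches beside the coding sequence. They are the 3 most intense members, and the 3 most intense in genes of 3 lists described further on. Those lists are hematopoietic transcription factors, blood receptors with their signaling proteins, and chromatin regulators. The list of cytoskeletal and adhesion scaffold proteins was left out. Each run spans 100 bp on either side of the mean summit in mm10 and is written 5′ to 3′ on the strand of the host gene. Capitals mark motif matches on either strand. The motif searched for the ETS family was GGAAGT, and for the RUNX family, whose members bind with their partner CBF-beta, it was TGTGGT. Factors of the GATA family were searched by AGATAA, and the E-box, which basic helix-loop-helix factors such as Tal1 bind, by CAGNTG. The motif of the C/EBP family of myeloid factors was TTGCNNAA, and that of the cyclic AMP response element (CRE) was TGACGTCA.
Map3k19, chr1:127830330-127830530, minus strand: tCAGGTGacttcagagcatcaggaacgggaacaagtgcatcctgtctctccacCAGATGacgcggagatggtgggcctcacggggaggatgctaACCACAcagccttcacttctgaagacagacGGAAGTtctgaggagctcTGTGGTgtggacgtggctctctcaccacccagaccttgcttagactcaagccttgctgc
Fam234b, chr6:135228461-135228661, plus strand: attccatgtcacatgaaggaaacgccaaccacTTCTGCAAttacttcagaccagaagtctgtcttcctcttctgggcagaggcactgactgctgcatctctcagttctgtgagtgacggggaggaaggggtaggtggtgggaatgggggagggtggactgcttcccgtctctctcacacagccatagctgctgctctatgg
Slc4a5, chr6:83268263-83268463, plus strand: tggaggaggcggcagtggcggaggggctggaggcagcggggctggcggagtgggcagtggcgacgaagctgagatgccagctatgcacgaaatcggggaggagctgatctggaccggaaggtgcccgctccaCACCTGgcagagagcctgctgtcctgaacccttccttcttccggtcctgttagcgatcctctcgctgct
Chd9, chr8:91051106-91051306, plus strand: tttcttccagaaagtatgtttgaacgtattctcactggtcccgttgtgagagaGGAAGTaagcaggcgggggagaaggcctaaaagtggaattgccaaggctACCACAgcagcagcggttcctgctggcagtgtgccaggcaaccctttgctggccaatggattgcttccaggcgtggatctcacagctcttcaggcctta
Lhx2, chr2:38368914-38369114, plus strand: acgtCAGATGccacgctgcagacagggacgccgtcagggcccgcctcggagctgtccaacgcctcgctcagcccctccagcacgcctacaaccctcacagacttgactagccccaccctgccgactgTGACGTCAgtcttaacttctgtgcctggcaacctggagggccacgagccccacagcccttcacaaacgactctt
Sos1, chr17:80418913-80419113, minus strand: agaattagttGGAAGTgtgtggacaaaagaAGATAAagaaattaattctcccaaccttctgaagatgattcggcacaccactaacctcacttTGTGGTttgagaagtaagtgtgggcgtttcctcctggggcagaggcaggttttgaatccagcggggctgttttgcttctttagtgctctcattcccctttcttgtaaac
The window in Map3k19 held 5 matches, of which 2 were E-boxes and 2 were RUNX motifs. The windows in Fam234b and Slc4a5 held 1 match each, a C/EBP motif and an E-box, and the E-box in Slc4a5 lay outside the coding exon. In Sos1 an ETS, a GATA and a RUNX motif lay within the same window.

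The lists held between 84593 (HPC7-6) and 132852 (HPC7-1) peaks. Peak intensity is given throughout as the fold enrichment at the summit, the ratio of reads there to the background of the library after 1 read is added to both. Within each list every fold enrichment was a whole multiple of 1 step to within 0.05 of a step and so gave a whole number of reads. The median member had 207 reads at its summit in HPC7-1 and between 37 and 75 in the other libraries, and the weakest had between 15 and 65. The background was 20.4 reads in HPC7-1 and between 4.44 and 7.45 in the other 6 libraries. As a check of the cell type, the promoters of all 9 hematopoietic progenitor markers (among them Kit, Cd34, Gata2, Tal1 and Runx1) held an OCR in all 7 lists, against 1 of 8 markers of other cells, the fibroblast collagen gene Col1a1. Of 14213 genes with coding sequence over 3 kb from any start, 62.5% had such a promoter OCR. Names of single peaks carried the prefix VD in 3 lists (HPC7-1, HPC7-2, HPC7-4) but EtOH in 4. No treatment stands in the sample labels, and whether the cultures were handled alike is not known.

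The intensity of the coding-exon OCRs spanned more than an order of magnitude. The mean fold enrichment over the 7 libraries had a median of 8.71, with quartiles of 5.88 and 14.1, and ran from 3.43 to 86.6. In 266 members (58.7%) the mean was below 10, in 62 (13.7%) it was above 20, and in 8 (1.77%) above 50. The median member was weakest in HPC7-6, at 5.95, and strongest in HPC7-8, at 11.1. The other libraries lay between 7.72 (HPC7-2) and 9.73 (HPC7-1). HPC7-8 gave the highest value for 271 of the 453 members, and HPC7-6 the lowest for 327. The order of the members was much alike between libraries, with Spearman correlations of 0.866 to 0.954 over the 21 pairs of libraries, which share their members.

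**Figure D1:**
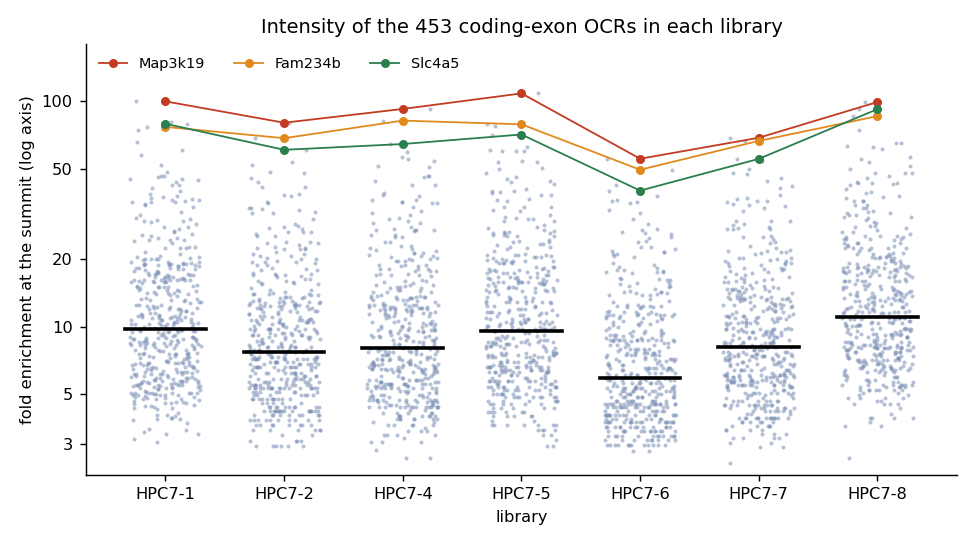
Fold enrichment at the summit (log axis) of the 453 coding-exon OCRs in each of the 7 libraries; each point is 1 OCR, the bar is the library median, and lines join the 3 most intense members. Medians run from 5.95 in HPC7-6 to 11.1 in HPC7-8, and Map3k19 is the highest point in every library.

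The most intense member lay in coding exon 8 of 13 of Map3k19, a gene for a kinase of the MAP kinase cascade. Its fold enrichment was 100.1, 80.5, 92.7, 108.6, 55.7, 69.0 and 99.5 (mean 86.6 ± 19.0, SD, n = 7). HPC7-6 and HPC7-7 were the lowest, as they were for the next 2 members. The second lay in coding exon 10 of 13 of Fam234b, with values of 77.1, 68.7, 82.2, 79.2, 49.8, 66.8 and 86.1 in the same order of libraries (mean 72.8 ± 12.3). The third lay in coding exon 11 of 25 of Slc4a5, which encodes a sodium bicarbonate cotransporter, with 79.6, 61.0, 64.7, 71.3, 40.2, 55.6 and 92.5 (mean 66.4 ± 16.9). At all 3, the value in the weakest library was still above 40. The promoters of Map3k19 and Slc4a5 held no OCR shared by all 7 lists, whereas that of Fam234b did.

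The next 7 members were in genes of varied function. They were Snupn (mean 60.2 ± 13.6), which encodes the import adaptor of spliceosomal snRNPs, Cyp4f16 (55.9 ± 14.0), a cytochrome P450, and Synpo (53.3 ± 12.0), an actin-associated protein. Slc3a1 (51.1 ± 10.2) encodes the heavy subunit of a cystine transporter, Hunk (50.3 ± 10.3) a serine/threonine kinase, Gtf3c1 (49.4 ± 11.8) the largest subunit of the RNA polymerase III factor TFIIIC, and Rubcnl (48.0 ± 16.0) a regulator of autophagy. The steps between neighbors in this order were smaller than these SDs. Of the 10 most intense members, 4 (Map3k19, Slc4a5, Slc3a1 and Hunk) lay in genes without a promoter OCR in all 7 lists.

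The 3 weakest members were in Krt88, a keratin gene (3.56 ± 0.62), Fiz1, which encodes a zinc finger protein that binds the receptor Flt3 (3.50 ± 0.34), and Plekhg6, a guanine nucleotide exchange factor gene (3.43 ± 0.50). At Plekhg6 the values were 4.12, 3.12, 2.60, 3.31, 3.76, 3.35 and 3.79, and the lowest value of any member ran from 2.48 to 3.09 between libraries. A peak of this size must be called in all 7 lists to enter, so weaker coding-exon OCRs were left out wherever 1 library missed them.

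The OCRs next to the limits on distance and width varied widely in intensity. The members closest to a start were in Fam13b at 3030 bp (7.44) and Fam234b at 3040 bp, and the OCRs just too close to a start to be kept were in F12 at 2991 bp (42.9) and Macf1 at 2985 bp (4.30). Just under 1500 bp wide were members in Ago2 (1494 bp, 39.1) and Ppp2r5a (1493 bp, 12.5), and just over it were OCRs in Prrt3 (1501 bp, 4.37) and Adcy7 (1507 bp, 25.5). Among the 1830 OCRs with a coding summit and a peak in all 7 lists, 1311 lay within 3 kb of a transcript start, and another 66 were too wide.

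Coding exons were then set beside introns and intergenic DNA, to ask whether the class of the DNA went with how strong or how frequent OCRs were. The same limits on lists, width and distance left 36438 OCRs, of which 20057 had an intronic, 14821 an intergenic and 1107 a noncoding exonic or UTR summit. The 453 coding-exon OCRs were 1.24% of these. The median coding-exon OCR had a fold enrichment of 8.6 ± 1.67 (SD over 7 libraries), the median intronic one 8.51 ± 1.55, and the median intergenic one 8.69 ± 1.45. For noncoding exonic or UTR summits it was 9.02 ± 1.67. On the log2 scale the coding-exon median differed from the intronic one by 0.01 ± 0.04 (higher in 5 of 7 libraries and equal in HPC7-6, p = 0.438 by an exact two-sided permutation test that flips the signs of the library differences, adjusted p = 0.438) and from the intergenic one by -0.02 ± 0.06 (higher in 3 of 7, p = 0.406 by the same exact test, adjusted p = 0.438). With 7 libraries the smallest p that this test can give is 0.0156. The sign of the difference from intronic OCRs was not stable. It was below 0 without HPC7-1, HPC7-2, HPC7-4, HPC7-5 or HPC7-8, and with peaks of -log10 q of at least 5 it was 0.04 ± 0.04, higher in 6 of 7 libraries (exact permutation p = 0.0312).

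The classes differed in base composition, and the comparison of intensity changed when it was held alike. Among OCRs with 50 to 60% GC around the summit, an alternative chosen after the data were seen, 245 coding-exon OCRs had a median of 8.05 ± 1.63, against 8.92 ± 1.71 for 7809 intronic and 9.41 ± 1.73 for 5774 intergenic OCRs. The log2 difference was then -0.15 ± 0.04 from intronic and -0.23 ± 0.04 from intergenic OCRs, lower in 7 of 7 libraries in both cases (p = 0.0156 by the exact permutation test, the smallest possible). In this range of GC the coding-exon OCRs were also narrower, with a median of 604 bp against 655 and 659 bp, and the part of width in the difference was not tested.

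OCRs were not rare in coding exons for the little sequence these hold. Over 3 kb from any start there were 17.4 Mb of coding sequence with 26.0 shared OCRs per Mb, 839 Mb of intron with 23.9 per Mb and 1186 Mb of intergenic DNA with 12.5 per Mb. Noncoding exons and UTRs held more, 30.1 per Mb over 36.8 Mb. Counting every peak of each list by its own summit, whether shared or not, coding exons held 52.0 ± 11.6 peaks per Mb and introns 45.0 ± 8.74. By library the ratio was 1.25, 1.1, 1.06, 1.14, 1.28, 1.1 and 1.14. It was above 1 in 7 of 7 libraries, with a mean of 1.15 ± 0.08 (mean log2 ratio 0.20 ± 0.10, exact permutation p = 0.0156). The mean log2 ratio was 0.11 both with peaks of -log10 q of at least 5 and with lists cut to equal numbers of peaks, above 0 in 7 of 7 libraries in both cases. When any base of a peak over this coding sequence counted, the ratio was 4.37 ± 0.34, above 1 in 7 of 7 libraries. Intron peaks were still counted by their summit there, and only when they touched none of this coding sequence. Coding and intron peaks were thus counted unlike, which raises the ratio, so it does not bear on the excess. The excess also depended on which intron bases were counted. With repeat-masked bases left out, which kept 95.4% of coding and 70.0% of intron bases, coding exons held 52.8 ± 11.8 peaks per Mb and introns 54.4 ± 10.1, a ratio of 0.97 ± 0.07 (above 1 in 2 of 7 libraries, exact permutation p = 0.281). With introns limited to bases within 1 kb of a coding exon, the ratio was 0.98 ± 0.05 (above 1 in 2 of 7, exact permutation p = 0.375).

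**Figure D2:**
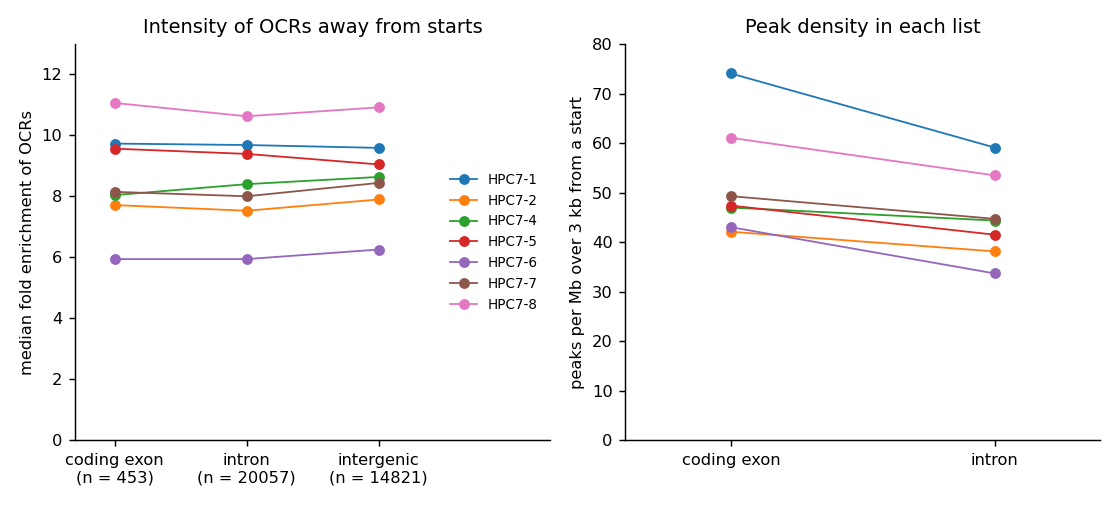
Left, median fold enrichment of shared OCRs over 3 kb from any start by class of the summit; right, peaks per Mb in coding exons and introns, counted in each list by its own summits. Each line is 1 library; the medians of the classes lie close together within a library, and all 7 lines of the right panel are higher in coding exons.

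**Figure D3:**
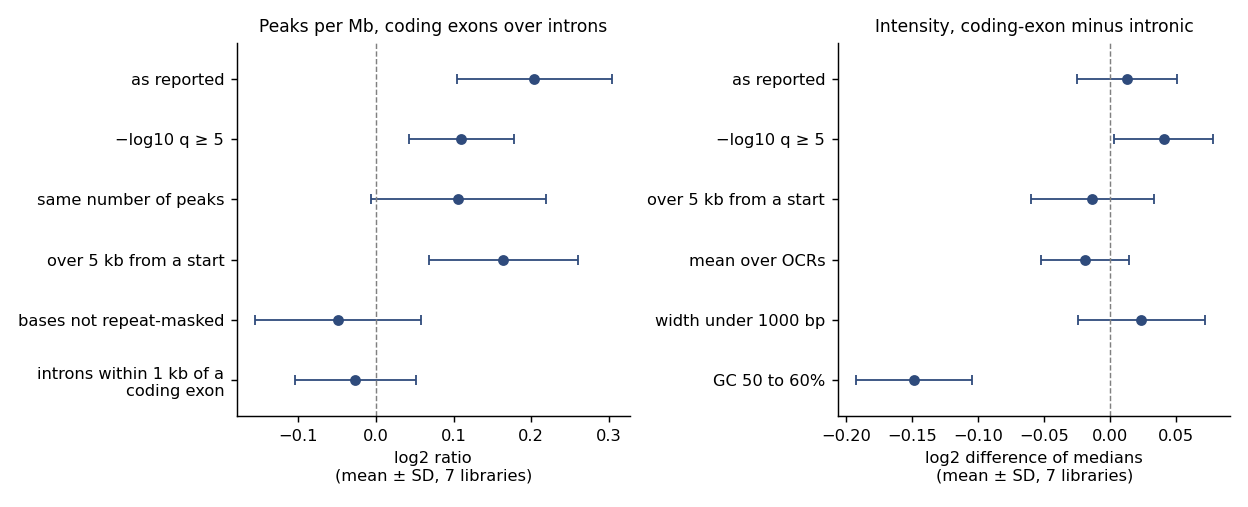
Log2 ratio of peaks per Mb (left) and log2 difference of median fold enrichment (right) between coding exons and introns, as reported and under other settings; points are means and bars SDs over 7 libraries. The density ratio falls from 0.20 to -0.05 without repeat-masked bases, and the intensity difference falls to -0.15 among OCRs of 50 to 60% GC.

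The OCRs were wider than the exons they were centered on. Member OCRs were 332 to 1494 bp wide (median 625 bp), and the coding part of the exon under the mean summit was 20 to 9837 bp long (median 171 bp). In 373 members (82.3%) the OCR covered that whole coding exon, and coding bases made up a median of 32.4% of the OCR. Only 123 members (27.2%) were more than 50% coding and 39 were wholly coding, for instance in the long exons of Simc1, Akap5, Stard9, Bod1l and Naca. The rule places the mean summit in the exon, and most OCRs reached beyond that exon. Between libraries the position of the summit had a median SD of 27.6 bp. This SD was over 100 bp in 13 members and reached 378 bp. The mean summit lay a median of 43 bp from the nearer end of the coding exon. In 258 members (57%) the summit of every one of the 7 libraries was inside the CDS. In 29 members at most 3 summits were, among them Ank1, where none was and the mean summit fell between separate summits.

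Along the gene the coding-exon OCRs were spread over all positions. The mean summit was in the first coding exon in 10 members (2.21%, against 2.79% of eligible coding bases), in an internal one in 327 (72.2%, against 74.2%), in the last in 108 (23.8%, against 20.1%) and in the only coding exon in 8 (1.77%, against 3.0%). There were 30.9 members per Mb of last coding exons and 25.3 per Mb of internal ones, against 20.6 per Mb of first and 15.3 per Mb of only coding exons. The distance that the rule asks for left 0.485 Mb of first coding exons. By length, exons of over 100 and up to 200 coding bp held 48.3% of members and 42.6% of the bases, and exons over 1000 bp held 12.6% of members and 15.6% of the bases. These shares are descriptions, since exons are not replicates. The distance to the nearest transcript start had a median of 7505 bp and reached 123900 bp.

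The members in the last or only coding exon were the weaker ones. Both kinds were pooled, with 108 members in a last and 8 in an only coding exon. Their median fold enrichment was 7.90 ± 1.52 (116 members), against 8.84 ± 1.77 for the other 337. The log2 difference was -0.16 ± 0.05, lower in 7 of 7 libraries (p = 0.0156 by the exact permutation test, adjusted p = 0.0312 by Benjamini-Hochberg over 6 differences in intensity). This difference and the other 3 within the members were not planned, and the test covers the spread between libraries at these OCRs, not the choice of OCRs. It was -0.26 without HPC7-7 and -0.10 with peaks of -log10 q of at least 5, lower in every library in both cases.

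The members were spread over 431 genes, of which 411 had 1 member, 18 had 2 and 2 had 3. Of 14213 genes with coding sequence over 3 kb from any start, 3.03% held a member. In Itpr3, which had 3 members and encodes an inositol trisphosphate receptor that releases calcium from internal stores, those in coding exons 7, 18 and 55 of 58 had 15.6 ± 3.76, 5.60 ± 1.36 and 5.44 ± 1.23. The first of these stood above the other 2, whose means differed by less than their SDs. Those SDs include shifts between libraries, and the 3 members were not compared library by library. A promoter OCR shared by all 7 lists was present in 328 of the 431 host genes (76.1%), against 62.5% of the genes with eligible coding sequence. The other 103 host genes had no OCR shared by all 7 lists within 1 kb of a start. Expression of these genes was not measured here.

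Members were counted in 4 lists of genes, which are short, so that the counts are small. Among hematopoietic transcription factors, 3 of 71 genes with eligible coding sequence held a member (4.23%, against 3.03% of all such genes). Lhx2, a LIM homeodomain factor, held 2 members (13.5 ± 3.27 and 4.83 ± 1.18). Nfkb2, which encodes the p100 precursor of the p52 NF-kappa-B subunit, held 1 (6.22 ± 1.91), and so did Lmo2, the bridging protein of the Tal1 complex (4.26 ± 0.89). At Lmo2 the values were 4.45, 2.94, 3.79, 5.74, 3.76, 4.37 and 4.81 from HPC7-1 to HPC7-8, at the weak end of all members. The density of members in this list was 53.0 per Mb of coding sequence with Lhx2 and 26.7 without it, against 26.0 over all genes.

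Among receptors of blood cells and their signaling proteins, 6 of 67 genes held a member (8.96%, against 3.03% of all eligible genes). The most intense was in Sos1, the guanine nucleotide exchange factor that activates Ras, with 11.4, 14.0, 12.1, 12.2, 11.3, 14.7 and 16.8 (mean 13.2 ± 2.04). Unlike most members it was not lowest by a margin in HPC7-6, and only 2 of its 7 summits lay in the exon. Others were in Jak2, the kinase of the erythropoietin and thrombopoietin receptors (8.27 ± 2.76), Ptpn11, which encodes the phosphatase SHP2 (6.59 ± 2.23), Notch2 (6.44 ± 1.29) and Plcg2, a phospholipase of immune receptor signaling (5.28 ± 0.84). The promoters of Sos1, Jak2, Ptpn11, Notch2 and Plcg2 held an OCR in all 7 lists, as did 76.1% of those of all host genes. Per Mb of coding sequence this list held 51.3 members, against 26.0 over all genes.

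Chromatin regulators had the most genes with a member, 9 of 79 (11.4%, against 3.03% of all eligible genes). Of these, 3 were chromodomain helicases, Chd9 (16.7 ± 3.91), Chd1 (13.2 ± 3.14) and Chd2 (4.55 ± 0.59). Another 2 were histone H3 lysine 4 methyltransferases, Kmt2a (11.3 ± 3.14) and Kmt2d (4.66 ± 1.54). The rest were the demethylase gene Phf2 (7.29 ± 1.91), the chromatin reader gene Zmynd8 (6.80 ± 1.66), Tet1, which encodes a 5-methylcytosine dioxygenase (5.72 ± 0.70), and Arid1b, a BAF complex subunit gene (4.59 ± 1.32). All 9 promoters were open in all 7 lists, as were 76.1% of those of all host genes. At Chd9 the OCR lay in the last of 38 coding exons, with values of 18.2, 15.4, 13.1, 17.2, 13.8, 14.7 and 24.6. Per Mb of coding sequence the list held 41.0 members, against 26.0 over all genes. Cytoskeletal and adhesion scaffold proteins had 6 of 60 genes with a member (10.0%, against 3.03%) but 25.1 members per Mb (26.0 over all genes). They were Vcl (vinculin, 22.5 ± 8.78), Macf1 (21.3 ± 4.50 and 8.50 ± 1.90), Tnxb (13.2 ± 3.20), Dst (10.9 ± 2.38), Ank1, the ankyrin of the red cell membrane (5.62 ± 0.80), and Ahnak (5.30 ± 1.53). The lists held 4 to 9 members each, and no test was made between them.

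The member in coding exon 4 of Lhx2 had peaks that followed the ends of the exon in some libraries. HPC7 cells were derived from progenitors that express Lhx2 from a vector, which is background and not a measurement of these files. The coding exon 4 of Lhx2, 206 bp long, is printed in capitals with 20 bases of intron on either side, since the edges of the peaks can be read against it.
Lhx2 exon 4, chr2:38359878-38360123, plus strand: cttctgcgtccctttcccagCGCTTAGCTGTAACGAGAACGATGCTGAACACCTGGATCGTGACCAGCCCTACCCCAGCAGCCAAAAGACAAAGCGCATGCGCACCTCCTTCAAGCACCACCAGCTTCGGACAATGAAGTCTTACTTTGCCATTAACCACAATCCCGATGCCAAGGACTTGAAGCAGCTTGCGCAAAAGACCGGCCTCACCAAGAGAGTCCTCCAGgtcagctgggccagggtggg
In HPC7-4 and HPC7-5 the peak began 3 bp after the first base of this exon and ended 2 bp before its last. In HPC7-6 and HPC7-7 it also began 3 bp after the first base, and ended 27 and 45 bp beyond the last. In HPC7-2 it began 4 bp after the first base and ended 34 bp beyond the last. In HPC7-1 it began 78 bp before the exon and ended 48 bp beyond it, and in HPC7-8 it began 60 bp before and ended 44 bp beyond, so both ends lay within 20 bp of those of the exon in 2 of 7 libraries. The fold enrichment was 6.93, 3.86, 3.67, 4.52, 5.63, 5.24 and 3.93. HPC7-6, the weakest library for most members, had the second highest of these values.

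Such peaks were also present at exons 2 and 3 of Lhx2, which lie closer to a transcript start and are not members. A peak had its summit in coding exon 2 in 6 libraries (3.79 to 5.53) and in coding exon 3 in 7 (3.49 to 6.74), with both ends within 20 bp of the ends of the exon in 4 libraries each. At coding exon 5, the second member, the peaks were stronger (9.54 to 19.0), began 40 to 107 bp before the coding exon and ran 74 to 150 bp beyond its coding part, and in no library did both ends lie within 20 bp of those of the coding part. Over all 728147 autosomal peaks of the 7 lists, 95 had both ends within 20 bp of those of a single coding exon, in 74 genes. In 65 of these genes there was 1 such peak. Lhx2 had 10, on 3 exons and in 5 libraries, and the gene next in number, Lrrc6, had 4 on 1 exon. The screen was made after the peaks at Lhx2 had been seen. What part reads from a vector copy of the Lhx2 coding sequence have in these peaks was not tested, because the lists hold no reads.

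**Figure D4:**
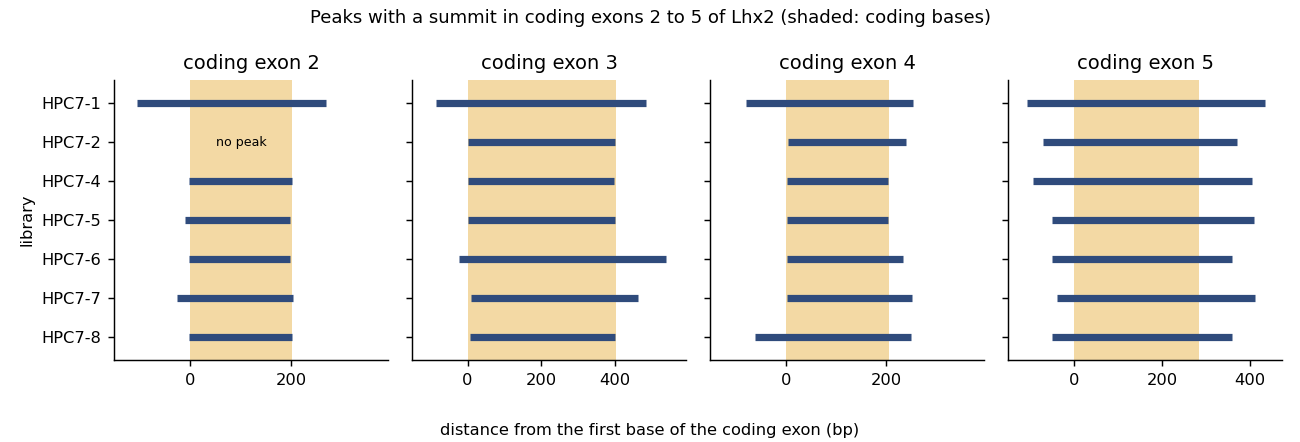
Extent of the peak of each library (bars) whose summit lay in coding exons 2 to 5 of Lhx2, in bp from the first base of the exon, with the coding bases shaded. At exons 2 to 4 the bars of several libraries end at the exon ends, whereas at exon 5 they reach beyond both in all 7 libraries.

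Coding-exon OCRs were richer in G and C than other OCRs away from promoters. The window of 100 bp on either side of the mean summit had a median GC content of 54.2% (quartiles 49.3 and 58.2%), against 48.8% in both intronic and intergenic OCRs. The GC content was also above that of coding sequence at large, 49.3% in 174088 windows centered on every 100th coding base over 3 kb from a start, and of the windows 1 kb from the members' summits, 46.3%. The ratio of observed to expected CpG was 0.328 in the members and 0.321 in the coding windows, against 0.179 in intronic and 0.191 in intergenic OCRs, so on this measure the members were like coding sequence. On average 5.30% of the window was repeat-masked, against 15.5% and 17.1% in intronic and intergenic OCRs. Over the members, GC content and mean fold enrichment had a Spearman correlation of 0.042, and width and mean fold enrichment of 0.547.

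A small group of 12 members (2.65%) was CpG-island-like, here an OCR with at least 50% GC and an observed to expected CpG ratio of at least 0.6 over its whole length. The same held for 0.135% of intronic and 0.520% of intergenic OCRs. The 12 were in Synpo, Garem2, B4galnt1 (a ganglioside synthase gene), Evx2 and Lhx2 (homeobox genes), Nrg2 (a neuregulin gene), Zscan10, Kcnh2 (a potassium channel gene), Prrt4, Prss56, Gfap (the intermediate filament of astrocytes) and Nfkb2. These OCRs were more intense, with a median of 18.6 ± 2.87 against 8.49 ± 1.66 for the other 441 members. The log2 difference was 1.11 ± 0.10, higher in 7 of 7 libraries (p = 0.0156 by the exact permutation test, adjusted p = 0.0312). They were also wider, with a median of 1028 bp against 622 bp, and among members under 1000 bp the difference was 0.75, higher in 7 of 7 libraries. It was 1.69 among members over 5 kb from a start. Both settings left fewer than the 12 CpG-island-like members. The one in Evx2, for instance, was 1369 bp wide and lay 3631 bp from a start. At Garem2 the values were 46.6, 39.0, 39.3, 53.9, 26.0, 44.6 and 61.8, and at Evx2 35.8, 22.4, 22.4, 36.0, 17.5, 24.5 and 36.0. Both were above the median member in every library.

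Transcript starts of a second annotation were looked at for the same OCRs. In RefSeq, 26 members lay within 3 kb of a start, 13 of them within 1 kb, but only 1 of these starts, near Ddi1, belonged to a curated transcript, the others being predicted models. The Lhx2 member in exon 5 lay 169 bp and the Kcnh2 member 493 bp from such a start. The 26 members were weaker than the others, with 7.41 ± 1.25 against 8.75 ± 1.80 (log2 difference -0.23 ± 0.09, lower in every library, p = 0.0156 by the exact permutation test, adjusted p = 0.0312). Another copy of the summit window, at 95% identity over 90% of its length, was found elsewhere in the assembly for 7 members, in Spred2, Arf1, Tnxb, Clca3a1, Clca3a2, Msh6 and Mettl7a1. Reads at these could stem from another copy.

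Motifs of hematopoietic factors were matched in the same windows. An E-box (CAGNTG) was present in 59.2% of the members, against 48.0% of intronic OCRs, 48.4% of intergenic OCRs and 49.9% of coding windows. The ETS motif was present in 24.5% of members and 13.2% of coding windows, the RUNX motif in 26.9% and 15.0%, and AP-1 (TGANTCA) in 8.61% and 4.76%. For each of these 3 the share in members lay between that of coding windows and that of intronic OCRs, where it was 29.1%, 31.5% and 13%. GATA was found in 11.9% of members, 17.9% of intronic OCRs and 8.49% of coding windows. C/EBP differed little, with 8.17, 7.92 and 8.19%. The GC box (GGGCGG) was found in 7.95% of members against 4.79% of intronic OCRs, and the CRE in 6 members (1.32%), against 0.234% and, in coding windows, 0.283%. No match to any of the 9 motifs was found in 53 members (11.7%). Each motif was matched on its own, so matches of different motifs could share bases, and a match is a description of the sequence, not of binding.

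As a ratio of shares, the core motif of CTCF gave the largest contrast with coding sequence at large among the 9 motifs. It was present in 35 members (7.73%), in 6.07% of intronic and 9.08% of intergenic OCRs, but in 0.132% of coding windows and in none of 906 windows 1 kb from the members' summits. The members with a match included Cped1 (26.3 ± 4.87), Tecpr2 (25.4 ± 4.95), Pdia4 (23.7 ± 5.50), Zscan10, Mef2d, Dst and Zmynd8, and 2 in Epg5, which encodes an autophagy tether. Their median intensity was 9.51 ± 2.19 against 8.51 ± 1.69 for members without a match. The log2 difference was 0.15 ± 0.11, higher in 6 of 7 libraries and lower in HPC7-4 (exact permutation p = 0.0312, adjusted p = 0.0468). It was 0.01 ± 0.11 (p = 0.812 by the exact test) among members over 5 kb from a start and -0.03 ± 0.11 (exact p = 0.531) with peaks of -log10 q of at least 5. Without HPC7-7 it was 0.09 (exact p = 0.156).

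**Figure D5:**
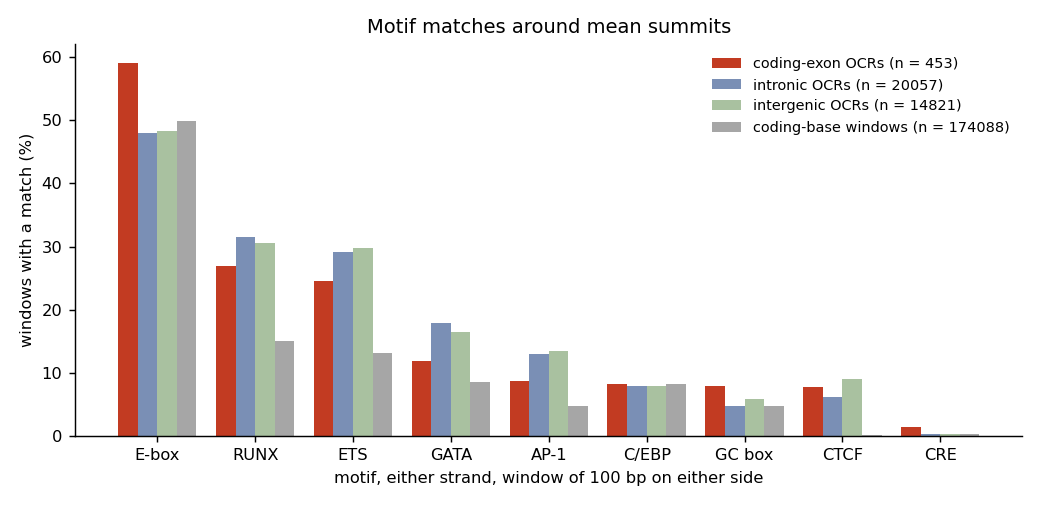
Share of windows of 100 bp on either side with a match to each of 9 motifs on either strand, in coding-exon, intronic and intergenic OCRs over 3 kb from any start and in windows of coding sequence. CTCF is matched in 7.73% of coding-exon OCRs and 0.132% of coding windows, and the E-box is most frequent in coding-exon OCRs, at 59.2%.

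The spread of each member over the libraries was taken after division by the library median. The coefficient of variation of these relative intensities had a median of 0.147 and ran from 0.0465 at Acad12, the gene of an acyl-CoA dehydrogenase family member, to 0.343 at Vti1a, which encodes a SNARE protein, and at exon 4 of Lhx2. At Acad12 the fold enrichment was 6.41, 5.51, 5.09, 6.61, 3.76, 5.39 and 7.14 from HPC7-1 to HPC7-8. At Vti1a it was 9.40, 7.90, 8.52, 4.87, 4.85, 3.93 and 5.53, with the highest values in HPC7-1, HPC7-2 and HPC7-4, the lists whose peak names carry the prefix VD. What the prefix stands for is not known. The member in Vcl also had a high coefficient, 0.332, with 36.8, 27.2, 22.8, 25.9, 11.4, 12.7 and 20.4. The coefficient at Vcl was picked out after its values were seen. The labels give 1 condition, and no test was made between libraries.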

How the data were processed

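Per the paper's methods, the authors removed adapters (Cutadapt), mapped reads to the mouse build mm10 (BWA-mem) and called peaks (MACS2). Each deposited list holds the peaks of 1 library. The submitters' processing notes also name BWA, MACS2 and mm10. Versions and options are not given in the sources used here. In the deposited lists, intensity is a fold enrichment, that is a ratio of reads over the library's own background with 1 read added to both. The added read was checked on the deposited -log10 p of peaks where it was below 100. The -log10 of Poisson p-values recomputed from the derived reads and background differed from it by a median of at most 5.3e-05% with it and of 2.93 to 9.95% without it in the 7 lists. Each list also has the authors' p and q values as -log10, a score that MACS2 makes from q, and the distance of the summit from the peak start. Read counts were not used here, and reads at summits were computed from the step of the fold enrichments.

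GENCODE M21 gave the CDS and the transcript starts, RefSeq further starts, and the GRCm38 assembly (mm10) the sequence and repeat masking. A base was assigned to coding exon, other exon, intron or intergenic DNA in that order, and a coding exon to the transcript with the longest CDS. Intensities were compared by the log2 difference of class medians in each library, by flipping the signs of the 7 library differences in all 128 ways (exact two-sided permutation test). The differences have no confidence interval over OCRs, since OCRs are not replicates. The p-values measure the spread between these culture batches. CTCF matches were to its core consensus on either strand.

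The members, gene lists and comparisons were chosen with earlier results of these data known. Named were the 10 most and 3 least intense members, genes with 3 or more members, members in the 4 gene lists, those with the highest and lowest coefficient of variation, and OCRs next to the limits. Other named genes were chosen after their values were seen. Some genes that this rule names are not reported here. Merging and the permutation test gave the same answers as bedtools 2.31.1 and scipy 1.17.1 on simulated data. Python 3.11.15, numpy 2.4.6, pandas 2.3.3, pysam 0.24.0, samtools 1.23.1, blastn 2.17.0 and matplotlib 3.10.9 were used. Sex chromosomes were not analysed here.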

Additional observations from a re-analysis of the deposited data

Results flagged for a closer look

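Of 60 groups of 7 library values that were looked at, 2 held a library far from the others, and about 1 in 20 groups is set apart in this way by chance. HPC7-1 had a background of 20.4 reads, against 7.45 in the next library and 4.44 in the lowest. In the same library the median coding-exon OCR had 207 reads at its summit, against 75 in the next and 37 in the lowest. The median fold enrichment of the members in HPC7-1, 9.73, lay within the range of the other libraries.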

How the results depend on the processing

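Groups of libraries could not be paired, because all 7 libraries formed 1 group. Classes of OCRs were compared within each library, so these comparisons were paired by library. The number of coding-exon OCRs was 258 when the summit of every library had to lie in a CDS, 324 to 668 under the other changes of the rule, and 449 to 512 with each library left out. Removing HPC7-6, the list with the fewest peaks, gave the highest of these. The small difference in intensity between coding-exon and intronic OCRs changed sign over 5 kb from a start (-0.0135), with the mean of log2 values (-0.0192) and at 50 to 60% GC (-0.149), was 0.0405 with peaks of -log10 q of at least 5 (exact permutation p = 0.0312), and ran from -0.0144 to 0.0181 with each library left out, below 0 without HPC7-1, HPC7-2, HPC7-4, HPC7-5 or HPC7-8. The difference from intergenic OCRs was 0.0156 with peaks of -log10 q of at least 5 and -0.229 at 50 to 60% GC, and ran from -0.058 to -0.0155 with each library left out. The log2 ratio of peaks per Mb was -0.0492 without repeat-masked bases and -0.0266 against introns within 1 kb of a coding exon, both chosen after the data were seen, and 0.179 to 0.224 with each library left out. It was 0.11 with peaks of -log10 q of at least 5 and 0.106 with lists cut to equal numbers of peaks. It was 2.12 when any overlap of a peak with coding sequence counted, but intron peaks were still counted by their summit. The alternatives for the differences within the members were also chosen after the data were seen. The difference by CTCF match was -0.0327 with peaks of -log10 q of at least 5 and 0.0097 over 5 kb from a start. With each library left out it ran from 0.0869 to 0.226. It lost the threshold without HPC7-1 (0.226), HPC7-5 (0.146), HPC7-7 (0.0869) or HPC7-8 (0.103), against 0.152 with all libraries. The differences of CpG-island-like members (0.749 to 1.69) and of the last or only coding exon (-0.259 to -0.0959) kept their direction and their side of the threshold in the 12 alternatives run for each. The share in the last coding exon was 23.2 and 23.5% under its alternatives. The median GC was 55.4% with 50 bp on either side of the summit and 50.6% over the whole OCR. The causes of these shifts were not tested.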
